A study of Mus musculus with 8 samples.

Results

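DNA repair genes and genes of the Fanconi pathway were examined in sorted stem cell fractions, named LSCs in the study, from untreated CML mice and from CML mice given imatinib (CML-TKI mice). The genes were a list of 40 symbols covering homologous recombination, the Fanconi pathway, damage signalling, end joining, and base excision, mismatch repair, replication and dNTP supply. 39 of the 40 symbols were found in the count table, out of 15576 gene symbols, and all 39 passed the filter on low counts among the 11937 genes tested. The remaining symbol, H2afx, does not appear in the table under that name. Its current symbol, H2ax, does, and its values are given below without being counted.

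Cells repair a break in both DNA strands either by homologous recombination, which copies the lost sequence from an intact sister DNA, or by end joining, which ligates the ends directly. The Fanconi pathway unhooks crosslinks between the strands of DNA. It does so through a core complex of FANC proteins that attaches ubiquitin to FANCD2 and FANCI, and the repair then goes on by recombination. In blood stem cells the pathway is known from Fanconi anaemia, in which its inherited loss leads to bone marrow failure and leukaemia. Many of these genes are expressed most in S and G2 phase, when a sister DNA is present.

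The mice were C57BL/6 and carried BCR-ABL and SCL-tTA, a pair of transgenes that switches the BCR-ABL oncogene on in stem cells once tetracycline is withdrawn, so that both groups carried the same alleles. CML mice were untreated, and CML-TKI mice received 400 mg/kg imatinib, an inhibitor of the BCR-ABL kinase, every other day for 4 weeks according to the labels. The study's figure legend for the LSC RNA-seq gives a lower dose over 4 weeks instead, and its methods name both doses. Which dose these libraries had could not be settled. Bulk RNA-seq gave 4 libraries per group, and neither the ages nor the number of animals behind a library are given. LSCs are defined in the study as CD150-positive CD48-negative cells of the Lin-Sca1+cKit+Flt3- compartment, while the labels of all 8 libraries give the opposite gate, CD150-negative and CD48-positive. Since the gate genes below differed between the groups, the groups are called CML and CML-TKI cells or libraries here. The CML columns are numbered 1, 2, 3 and 5 and the CML-TKI columns 1 to 4. The labels number the CML libraries 1 to 4, and the label of the fourth repeats the column name of CML 1, so that CML 5 was taken as a CML library from its column name alone. Values are given in these orders throughout, as TMM-normalised CPM, that is counts scaled to an equal library size.

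Total counts ranged from 1041552 in CML-TKI 3 to 8620101 in CML 5, and the ribosomal gene Rn45s took 9.23% to 38.3% of them. A count of 3, used as the floor, corresponded to 0.409 to 0.580 CPM in the CML libraries and to 0.570 to 3.29 CPM in the CML-TKI libraries, for counting error only. 3 libraries stood apart. CML 5 differed from CML 1 to 3 far more than these differed from each other, with a chi-square per degree of freedom of 51.3 to 55.3 against 3.56 to 4.79. CML-TKI 1 was nearest to the CML libraries in its summed granulocyte, monocyte and stem cell genes, and CML-TKI 3 was the shallowest and held haemoglobin RNA. The coefficient of variation between libraries, estimated by edgeR, was 10.1% for CML 1 to 3 and 43.6% for the CML-TKI libraries. Over all 4 CML libraries it was 26.8%. Nothing states that the libraries came from separate animals, so p-values measure the spread between these libraries. A fit with CML 1 to 3 summed into 1 library is therefore given below.

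Cell type markers differed between the groups. Of the granulocyte genes 12 of 14 tested rose in CML-TKI cells, and their summed level was 173 to 284 CPM in CML and 1490 to 8525 CPM in CML-TKI libraries, lowest in CML-TKI 1. Of the monocyte genes 8 of 9 rose, from 17.4 to 41.7 CPM summed to between 735 and 4003 CPM. The stem cell genes summed to 1145 to 1407 CPM in CML and to 35.6 to 338 CPM in CML-TKI cells. 4 of the 9 tested fell, none rose, Mecom, Procr and Fgd5 had no count in 2 CML-TKI libraries, and Hoxb5 had none in 3. 2 of 7 megakaryocyte genes fell and 1 of 7 erythroid genes, Tfrc, rose, while a single lymphoid gene was tested and was not called. Over all genes tested 6.29% rose and 3.93% fell. Of the 7 erythroid genes 3 had a fold change below 0, and 1 lay without overlap on the lower side. Erythroid genes summed to 24126 CPM in CML-TKI 3 and to 221 to 927 CPM in the other libraries. Of the gate genes, Cd48 went from 5.05 ± 1.24 to 103 ± 56.9 CPM (mean ± SD, n = 4 libraries per group, edgeR adjusted p = 8.70e-04). Slamf1, the gene of CD150, went from 32.4 ± 3.74 to 3.33 ± 2.74 CPM (edgeR adjusted p = 0.00797). Kit, whose product is in the gate of both groups, went from 938 ± 119.6 to 248 ± 44.2 CPM (edgeR adjusted p = 8.70e-04), while Ly6a, which encodes Sca1, and Flt3 were not called (adjusted p = 0.373 and 0.522). In bulk RNA, fewer cells of a type and less RNA per cell cannot be told apart. The part of these markers in the values of the repair genes was not tested.

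Among the 39 repair genes, 1 passed the test at an adjusted p under 0.05, Rrm2, which was higher in CML-TKI cells. This is 2.56% of them, against 10.2% of all genes tested. By direction, 1 repair gene was higher and 0 were lower, against 6.29% and 3.93% of all genes. At an unadjusted p under 0.05 by the same edgeR test, 8 repair genes (20.5%) were higher and 0 lower, against 13.7% and 12.1% of all genes and 25.7% in either direction. In 6 repair genes (15.4%) every CML-TKI library lay above every CML library, against 10.3% of all genes, and in 0 did every CML-TKI library lie below, against 13.1%. These 6 were Rrm2, Fancm, Brca1, Fancd2, Fanca and Fanci. 20 of the 39 fold changes were above 0 and 19 below, with a median log2 fold change of 0.030 against -0.00026 over all genes. In this edgeR fit the share of repair genes called was thus below the background. With all 8 libraries and TMM scaling the 6 genes without overlap were all on the higher side. Both depended on the tool, the scaling and the libraries used, as given next.

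**Figure D1:**
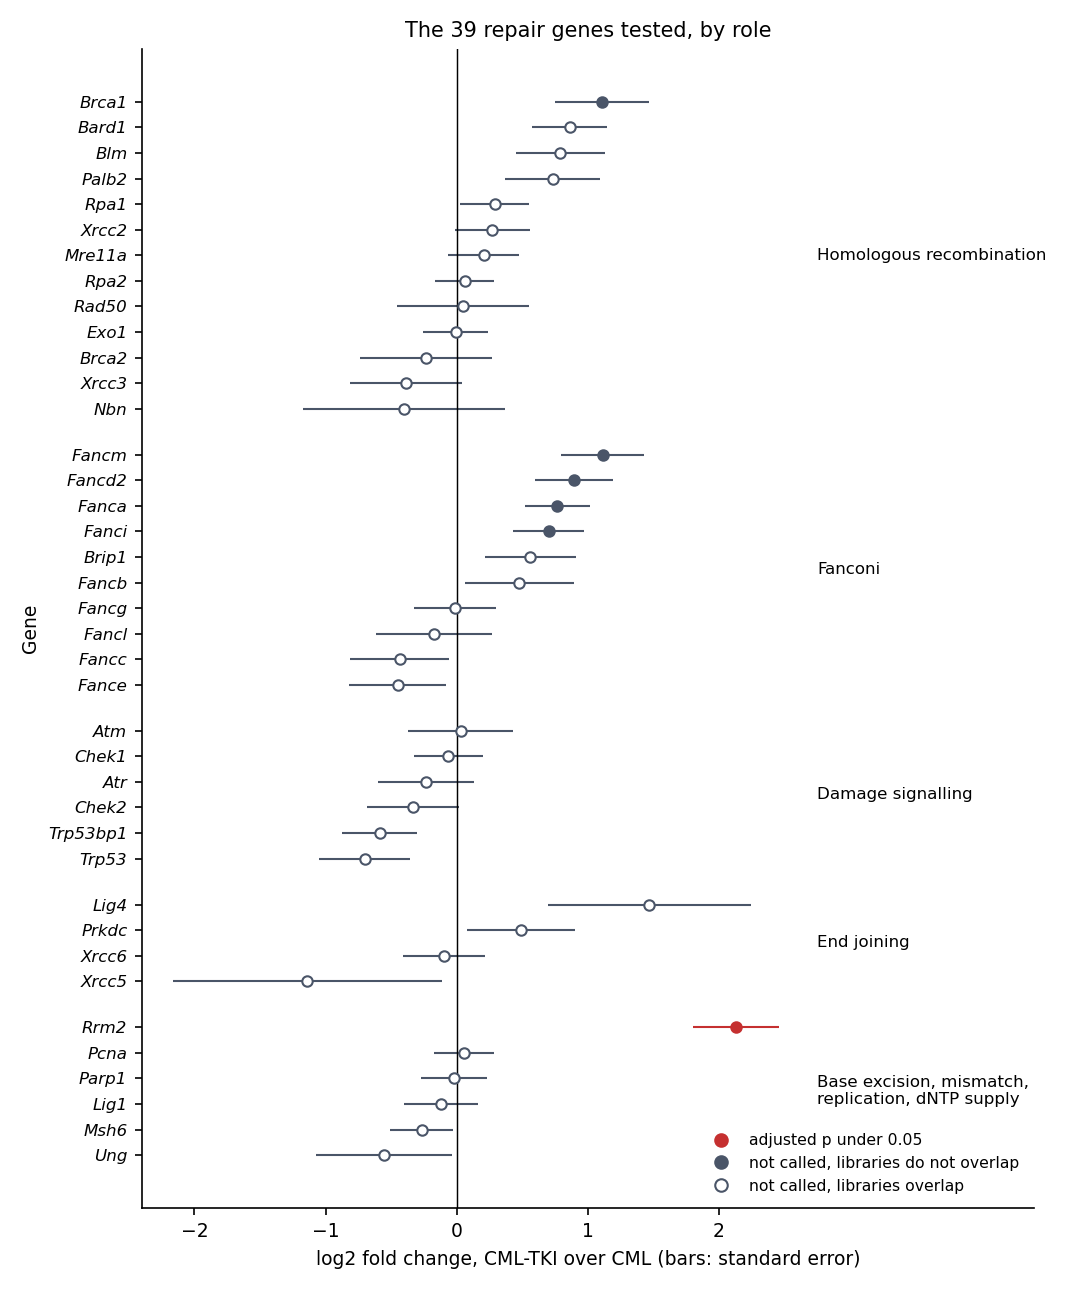
Fitted log2 fold change of CML-TKI over CML cells for the 39 repair genes, grouped by role, with standard errors from edgeR (n = 4 libraries per group). Rrm2, in red, is the single gene past the threshold at 2.13, and filled points mark genes whose libraries do not overlap between the groups.

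The tool and the libraries used moved these counts. DESeq2 called 6 repair genes, all higher (Rrm2, Brca1, Bard1, Fanca, Fancd2 and Fancm), among 2157 genes in all (18.1% of the 11937). It gave Xrcc5 a log2 fold change of -1.21 but no adjusted p, so Xrcc5 could not be called there. limma-voom with quality weights called the same 6 and 2 lower ones, Trp53bp1 and Xrcc5, among 2544 (21.3%). Without CML-TKI 1 edgeR called 6 repair genes, 5 higher (Rrm2, Brca1, Bard1, Fanca and Fancm) and 1 lower (Xrcc5), among 2504 genes (20.6%). When CML 1 to 3 were summed into 1 library it called 0 repair genes and 122 genes in all (0.971%). Scaling by the total count without Rn45s moved the median of all genes to -0.14 and left 1 repair gene called among 9.94% of all genes, and the share of higher calls among all calls went from 61.6% to 50.7%. Under that scaling Fancd2 overlapped and the CML-TKI libraries of Trp53 all lay below the CML libraries, while the share of all genes without overlap went from 10.3% to 8.23% on the higher side and from 13.1% to 16.4% on the lower side. Leaving out a library can only add genes without overlap. Those added on the higher side were Blm without CML 2 (11.4% of all genes), Palb2, Bard1 and Blm without CML-TKI 1 (15.5%), and Rpa1 and Brip1 without CML-TKI 3 (13.9%). Those on the lower side were Nbn, Trp53bp1 and Msh6 without CML 5 (17.4% of all genes), Trp53 without CML 3 (14.2%), Trp53 and Xrcc5 without CML-TKI 1 (20.6%), and Xrcc3, Fancc and Fancl without CML-TKI 4 (16.3%).

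Rrm2 encodes the small subunit of ribonucleotide reductase, the enzyme that makes dNTPs for DNA synthesis and repair, and its subunit is produced mainly in S phase. It is encoded on chromosome 12 from 24708254 to 24714146 on the plus strand (GRCm38). Its level was 51.1, 50.2, 48.7 and 55.8 CPM in the CML libraries and 103, 324, 269.6 and 208 CPM in the CML-TKI libraries. The CML libraries lay within a few CPM of each other, and CML-TKI 1 was the lowest of the treated libraries yet above all untreated ones. Rrm2 was 4.38-fold higher in CML-TKI cells (log2 fold change 2.13 ± 0.33 (SE), edgeR adjusted p = 0.00380). It remained called without any single library, with a log2 fold change between 1.90 and 2.37 and an adjusted p between 1.5e-04 and 0.0212. It lost the call when CML 1 to 3 were summed into 1 library (2.07, adjusted p = 0.112). Rrm1, the large subunit, was at 309, 342, 293 and 249 CPM in untreated and 369, 493, 292 and 431 CPM in treated cells, which overlapped (log2 fold change 0.41 ± 0.22, adjusted p = 0.272). Within each library the log2 CPM of Rrm2 minus that of Rrm1 was -2.76 to -2.15 in CML and -1.84 to -0.11 in CML-TKI cells; the ratio of small to large subunit was thus higher in every treated library. Rrm2b, the subunit made in response to p53, was at 24.5, 22.6, 22.8 and 14.2 CPM in CML samples and 36.3, 23.6, 16.4 and 5.20 CPM in CML-TKI samples (log2 fold change -0.033, adjusted p = 0.978).

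**Figure D2:**
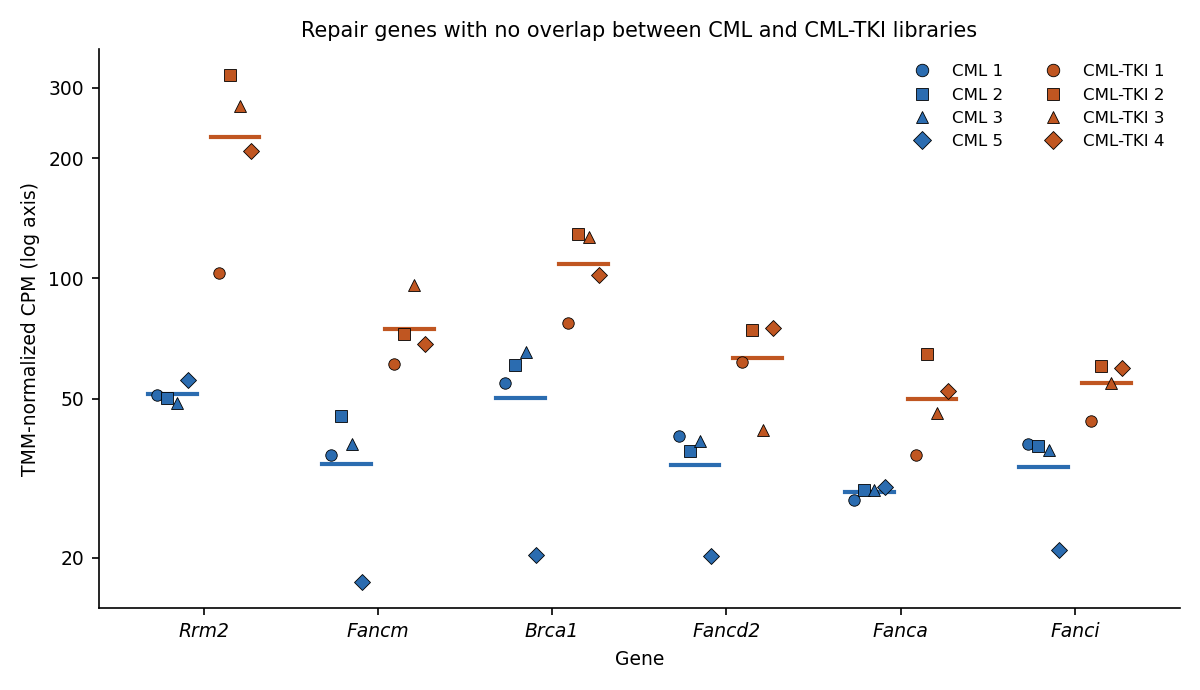
CPM on a log axis of the 6 repair genes in which every CML-TKI library lay above every CML library, 1 point per library, with bars at the group means. CML 5 is the lowest CML library for Fancm, Brca1, Fancd2 and Fanci, and CML-TKI 1 is the lowest CML-TKI library for all but Fancd2.

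The Fanconi genes held 4 of the 6 genes without overlap, that is 4 of the 10 tested, against 10.3% of all genes on the higher side. Of 11 further Fanconi genes outside the list, 0 lay without overlap on the higher side and 2 on the lower, against 10.3% and 13.1% of all genes. Among these 11, 8 had a fold change below 0 and the median log2 fold change was -0.25. 0 of the 10 listed genes passed the threshold, against 10.2% of all genes, 6 had a fold change above 0, and their median log2 fold change was 0.52 (0.35 without CML 5). FANCM is the DNA translocase that anchors the core complex at a stalled fork. Fancm was at 36.2, 45.4, 38.5 and 17.3 CPM in the CML libraries and 61.2, 72.5, 96.4 and 68.4 CPM in the CML-TKI libraries (log2 fold change 1.11 ± 0.32, adjusted p = 0.0524). Fanca, a scaffold subunit of the core complex, was at 27.9, 29.5, 29.6 and 30.0 CPM in untreated and 36.1, 64.8, 46.0 and 52.3 CPM in treated cells (0.77 ± 0.25, adjusted p = 0.0821). Fanca had the lowest SD of the 10 in untreated cells, 0.908 CPM, and CML 5 did not stand apart there. Fancd2, which is ubiquitinated by the core complex, was at 40.3, 36.9, 39.2 and 20.2 CPM in CML samples and 61.7, 74.1, 41.6 and 74.9 CPM in CML-TKI samples (0.89 ± 0.30, adjusted p = 0.0903). Its partner Fanci was at 38.5, 38.0, 37.1 and 20.9 CPM in the CML libraries and 44.1, 60.4, 54.8 and 59.6 CPM in the CML-TKI libraries (0.70 ± 0.27, adjusted p = 0.131). In both genes CML 5 was well below the other CML libraries. The groups of Fancd2 were separated by little, since CML-TKI 3 lay just above CML 1. The log2 CPM of Fanci minus that of Fancd2 was -0.080 to 0.047 in the CML libraries, and -0.48, -0.29, 0.39 and -0.33 in the CML-TKI libraries.

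The fold changes became smaller for 3 of these 4 Fanconi genes when CML 5 was left out. Without it the log2 fold change was 0.88 for Fancm, 0.70 for Fancd2, 0.52 for Fanci and 0.77 for Fanca, with adjusted p of 0.0587, 0.1396, 0.184 and 0.121. Without CML-TKI 1 Fancm (1.19, adjusted p = 0.0335) and Fanca (0.90, adjusted p = 0.0256) passed the threshold, and without CML-TKI 3 Fancd2 did (1.05, adjusted p = 0.0487, with 9.79% of all genes called). An edgeR fit with a minimum count of 30 also called Fancm (adjusted p = 0.0473, with 11.3% of all genes called).

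The other Fanconi genes overlapped between the groups. Brip1, a helicase that binds BRCA1, ranged from 17.9 to 46.9 CPM in CML and 35.1 to 70.7 CPM in CML-TKI cells. Fancb, of the core complex, ranged from 7.56 to 12.9 CPM in CML and 9.30 to 19.7 CPM in CML-TKI cells, and Fancc ranged from 32.7 to 35.7 CPM in CML and 8.77 to 37.7 CPM in CML-TKI cells. Fance, which bridges the core complex and FANCD2, was at 21.1, 23.0, 19.5 and 47.7 CPM in untreated and 16.0, 20.8, 18.6 and 26.02 CPM in treated cells, and was higher in CML 5 than in every other library. Fancg was at 23.3, 19.9, 17.97 and 27.8 CPM in CML samples and 21.8, 29.4, 21.9 and 15.1 CPM in CML-TKI samples. Fancl, the ubiquitin ligase of the complex, was at 14.4, 15.2, 13.1 and 16.2 CPM in the CML libraries and 7.98, 8.37, 11.0 and 24.7 CPM in the CML-TKI libraries, with CML-TKI 4 above and the other treated libraries below all untreated ones. Adjusted p-values of these 6 genes ranged from 0.342 to 0.987. Of the core complex, Fancm and Fanca were separated between the groups, and Fancb, Fancc, Fance, Fancg and Fancl were not.

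Among the 13 genes of homologous recombination 0 passed the threshold, against 10.2% of all genes, and 1 lay without overlap on the higher side, against 10.3%. 9 had a fold change above 0, and the median log2 fold change was 0.21, from 0.06 without CML-TKI 4 to 0.31 without CML-TKI 3, and 0.13 without CML 5. BRCA1 and BARD1 form a ubiquitin ligase that directs a break to recombination. Brca1 was at 54.7, 60.8, 65.3 and 20.3 CPM in untreated and 77.1, 129, 127 and 102 CPM in treated cells (1.11 ± 0.36, adjusted p = 0.0795). Bard1 was at 61.8, 59.8, 50.8 and 37.8 CPM in CML samples and 54.5, 106, 105 and 118 CPM in CML-TKI samples (0.86 ± 0.29, adjusted p = 0.0860). Brca1 did not overlap between the groups, and Bard1 overlapped through CML-TKI 1 alone, which lay among the untreated libraries. Without CML-TKI 1 Brca1 (1.24, adjusted p = 0.0402) and Bard1 (1.06, adjusted p = 0.0120) were both called. Without CML 5 the values were 0.84 (adjusted p = 0.0681) and 0.72 (adjusted p = 0.166).

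Blm, a helicase that unwinds recombination intermediates, ranged from 18.1 to 49.0 CPM in CML and 46.3 to 85.5 CPM in CML-TKI cells (0.79 ± 0.34, adjusted p = 0.175). Palb2, which links BRCA1 to BRCA2, ranged from 14.0 to 24.5 CPM in CML and 17.1 to 43.8 CPM in CML-TKI cells (0.73 ± 0.36, adjusted p = 0.237). Brca2, whose product acts in strand invasion, was at 117, 138, 128 and 23.5 CPM in the CML libraries and 62.9, 130.2, 48.2 and 101 CPM in the CML-TKI libraries. Here CML 5 was several-fold below the other CML libraries, and the treated libraries spanned most of the range of the untreated ones. Xrcc2 and Xrcc3, which also act in strand invasion, were not called. Xrcc2 ranged from 29.6 to 35.9 CPM in CML and 26.7 to 50.5 CPM in CML-TKI cells. Xrcc3 was at 21.9, 17.8, 20.7 and 24.1 CPM in untreated and 12.2, 11.5, 8.77 and 31.2 CPM in treated cells, with CML-TKI 1 to 3 below and CML-TKI 4 above all untreated libraries.

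The MRN complex of MRE11, RAD50 and NBN senses and trims broken ends. Mre11a was at 62.9, 60.4, 58.9 and 32.2 CPM in CML samples and 58.1, 57.0, 52.6 and 79.1 CPM in CML-TKI samples. Rad50 was at 61.3, 73.9, 57.8 and 14.4 CPM in the CML libraries and 55.5, 52.7, 20.8 and 82.7 CPM in the CML-TKI libraries. Nbn was at 26.01, 27.8, 24.0 and 6.05 CPM in untreated and 21.1, 22.6, 0 and 17.4 CPM in treated cells. All 3 were lowest among the CML libraries in CML 5 and lowest among the CML-TKI libraries in CML-TKI 3, by little for Mre11a. Nbn had 0 counts there, which allows up to 3.29 CPM at a floor of 3 counts. The log2 CPM of Rad50 minus that of Mre11a was -1.13 in CML 5 and -1.32 in CML-TKI 3, and -0.11 to 0.29 in the other 6 libraries. Exo1, the nuclease that extends the trimming, was at 46.3, 46.3, 41.5 and 31.3 CPM in CML samples and 43.9, 44.0, 30.7 and 45.0 CPM in CML-TKI samples. RPA coats the single strands so made. Rpa1 ranged from 97.5 to 101 CPM in CML and 66.9 to 161 CPM in CML-TKI cells, and Rpa2 was at 61.3, 55.8, 54.7 and 70.8 CPM in the CML libraries and 48.4, 80.0, 58.1 and 66.3 CPM in the CML-TKI libraries. Adjusted p-values of the MRN, Exo1 and RPA genes ranged from 0.531 to 0.989.

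Among the 6 genes of damage signalling 0 passed the threshold, against 10.2% of all genes. 5 had a fold change below 0, and the median log2 fold change was -0.28, from -0.55 without CML-TKI 4 to -0.11 without CML-TKI 3. Without CML 5 all 6 were below 0, with a median of -0.47. Trp53, the gene of p53, was at 65.1, 60.2, 56.8 and 94.2 CPM in untreated and 58.7, 46.8, 17.5 and 44.0 CPM in treated cells (-0.70 ± 0.35, adjusted p = 0.236). Of the untreated libraries CML-TKI 1 lay above CML 3 alone, and the other treated libraries lay below all untreated ones. Trp53bp1, whose product 53BP1 steers breaks to end joining, was at 137, 143, 167 and 82.2 CPM in CML samples and 101, 66.0, 118 and 68.2 CPM in CML-TKI samples (-0.59 ± 0.29, adjusted p = 0.232). CML 5 lay among the treated libraries, and without it all treated libraries lay below all untreated ones. limma-voom called Trp53bp1 lower (-0.88, adjusted p = 0.0236). The kinases ATM and ATR start the response to breaks and to stalled forks. Atm was at 235, 243, 212 and 54.0 CPM in the CML libraries and 216, 158, 193 and 194 CPM in the CML-TKI libraries. Atr was at 147, 154, 135 and 61.0 CPM in untreated and 83.6, 87.7, 73.4 and 176 CPM in treated cells. In both CML 5 lay far below every other CML library. The log2 fold changes were 0.030 for Atm and -0.24 for Atr with all libraries, and -0.29 and -0.47 without CML 5. Chek1, the kinase downstream of ATR, was at 26.8, 28.4, 29.6 and 21.7 CPM in CML samples and 26.8, 26.96, 19.7 and 27.8 CPM in CML-TKI samples, and Chek2, downstream of ATM, ranged from 21.997 to 35.7 CPM in CML and 12.1 to 36.2 CPM in CML-TKI cells. H2ax, the histone phosphorylated around breaks, was at 63.6, 74.3, 64.0 and 198 CPM in the CML libraries and 83.8, 114, 121 and 179 CPM in the CML-TKI libraries (0.31 ± 0.41, adjusted p = 0.680).

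Of 22 targets of p53 tested, 2 rose and 2 fell, against 6.29% and 3.93% of all genes, which is near the background, with a median log2 fold change of -0.0021. Cdkn1a, the cell cycle inhibitor p21, was at 1.63, 2.12, 3.67 and 2.20 CPM in untreated and 46.7, 26.03, 8.77 and 10.4 CPM in treated cells (3.27 ± 0.63, adjusted p = 0.0110). Tigar, a regulator of sugar metabolism, rose by 2.50 on the log2 scale (adjusted p = 0.0175). Sesn1, a stress sensor, fell by 1.68 (adjusted p = 0.00826), and Tap1, a peptide transporter, fell by 1.19 (adjusted p = 0.00604).

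End joining was represented by 4 genes, of which 0 passed the threshold, against 10.2% of all genes. Ku, the ring that slides onto broken ends, is made of 1 subunit each from Xrcc5 (Ku80) and Xrcc6 (Ku70). Xrcc5 was at 46.7, 39.4, 37.3 and 34.0 CPM in CML samples and 56.2, 0.620, 0 and 10.9 CPM in CML-TKI samples. It thus had the highest level of all 8 libraries in CML-TKI 1, 0 counts in CML-TKI 3 and 2 counts in CML-TKI 2, both below the floor of 3. Xrcc6 was at 40.9, 34.0, 32.3 and 28.05 CPM in the CML libraries and 43.3, 24.5, 39.5 and 19.8 CPM in the CML-TKI libraries. The log2 CPM of Xrcc5 minus that of Xrcc6 was 0.19 to 0.27 in the CML libraries, 0.37 in CML-TKI 1 and -0.83 in CML-TKI 4. In CML-TKI 2 the 2 counts of Xrcc5 against 79 of Xrcc6 gave a log2 ratio of -5.30 (95% exact binomial interval -8.37 to -3.40, counting error only). In CML-TKI 3 the 0 counts against 36 put it at or below -3.58 at the floor of 3 counts. The fitted log2 fold change of Xrcc5 over all libraries was -1.14 ± 1.02 (adjusted p = 0.531), the lowest of the 39. Without CML-TKI 1 it was -3.09 (adjusted p = 0.0272). CML-TKI 1, with which the call was lost, was also the library with the lowest summed granulocyte and monocyte levels among the treated libraries. Xrcc6 was not called with or without it.

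**Figure D3:**
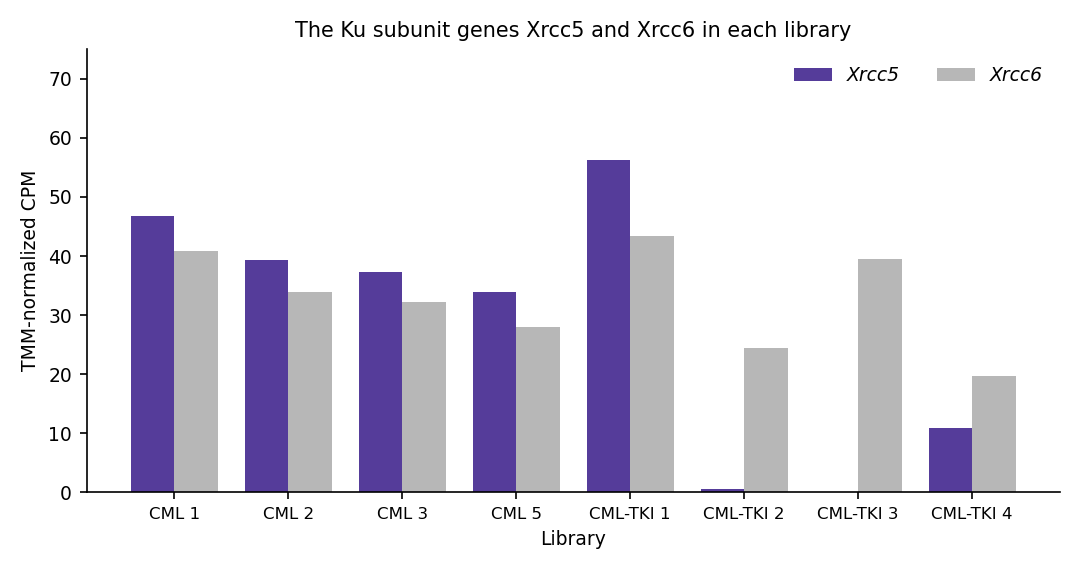
CPM of Xrcc5 and Xrcc6 in each of the 8 libraries. Both subunit genes were between 28.05 and 46.7 CPM in the CML libraries, and Xrcc5 was at 0.620, 0 and 10.9 CPM in CML-TKI 2 to 4 while Xrcc6 stayed between 19.8 and 39.5 CPM there.

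Prkdc, the DNA-dependent kinase that Ku recruits, was at 156, 162, 149 and 55.7 CPM in untreated and 97.2, 139, 196 and 304 CPM in treated cells. Lig4, the ligase of the pathway, was the least abundant of the repair genes, at 3.27, 5.597, 4.25 and 1.65 CPM in CML samples and 15.4, 2.79, 20.8 and 3.12 CPM in CML-TKI samples, and was high in CML-TKI 1 and 3 only. Its log2 fold change was 1.47 ± 0.77 (adjusted p = 0.269).

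The last group holds genes of base excision, mismatch repair and replication beside Rrm2. Pcna, the sliding clamp, was at 209, 223, 207 and 307 CPM in the CML libraries and 192, 319.8, 248 and 225 CPM in the CML-TKI libraries. Parp1, which marks nicked DNA, was at 214, 235, 205 and 153 CPM in untreated and 199, 199, 130.4 and 266 CPM in treated cells. Lig1, the ligase of replication, was at 111, 99.8, 99.5 and 78.8 CPM in CML samples and 63.1, 89.3, 64.7 and 139.7 CPM in CML-TKI samples. CML 5 was the highest CML library for Pcna and the lowest for Parp1 and Lig1. Ung, which removes uracil, was at 25.5, 27.2, 31.3 and 43.9 CPM in the CML libraries and 18.04, 30.1, 3.29 and 33.3 CPM in the CML-TKI libraries, with 3 counts in CML-TKI 3. Msh6, of the mismatch sensor, ranged from 97.2 to 187 CPM in CML and 114 to 149 CPM in CML-TKI cells. None of the 5 was called, and their adjusted p-values ranged from 0.531 to 0.973.

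Levels were compared between genes per kilobase of the longest annotated transcript. Pcna was the highest at 156 CPM per kb in CML and 162 CPM per kb in CML-TKI cells, followed in CML by Parp1 (52.1), Msh6 (36.8), Rpa2 (33.4) and Lig1 (30.4). Lig4 was the lowest in both groups (0.734 and 2.09). Rrm2 went from rank 6 in CML (23.5) to rank 2 in CML-TKI cells (103). Xrcc5 went from rank 10 to rank 33, Brca1 from 27 to 10 and Bard1 from 23 to 9. The Fanconi genes lay between 3.28 (Fancb, rank 38) and 12.7 (Fance, rank 14) CPM per kb in untreated cells, with Fancm at 4.39. The mean of Fance was raised by CML 5, at 47.7 CPM against 19.5 to 23.0 CPM in CML 1 to 3. In each group 34 of the 38 pairs of neighbours in this order differed by less than the larger of their SDs. The exceptions were the steps from Pcna to Parp1, Parp1 to Msh6, Lig1 to Rrm2 and Fancb to Lig4 in CML, and from Pcna to Rrm2, Rrm2 to Parp1, Parp1 to Rpa2 and Fancb to Lig4 in CML-TKI cells.

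**Figure D4:**
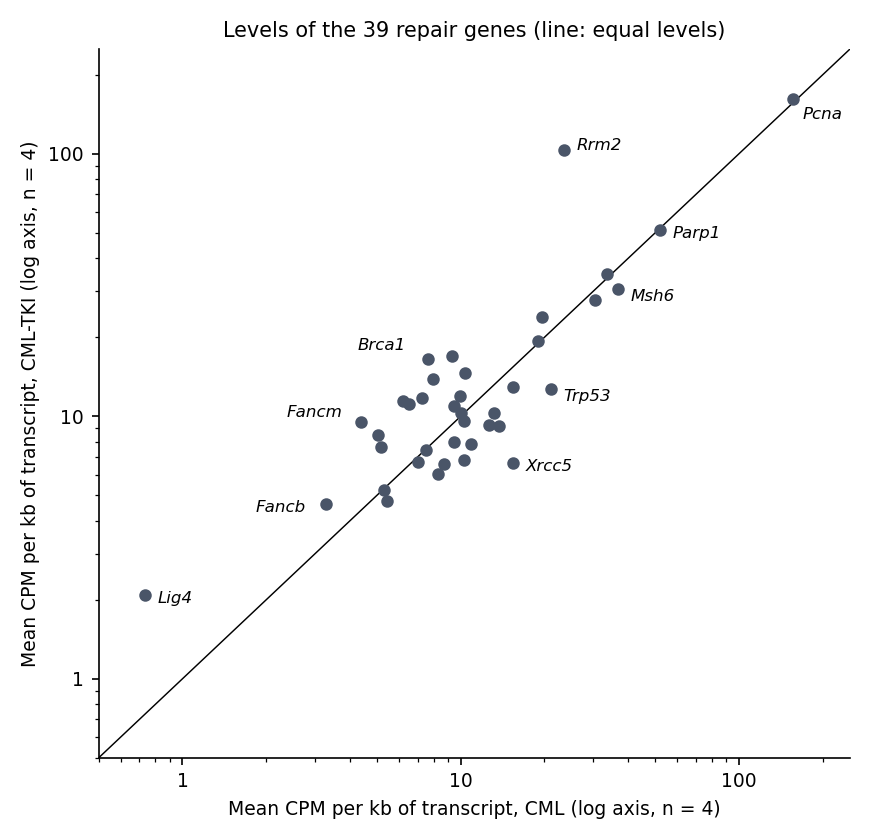
Mean CPM per kb of transcript in CML against CML-TKI cells for the 39 repair genes, on log axes, with a line at equal levels. Rrm2 lies farthest above the line, Xrcc5 lies below it, and Pcna, the most abundant, lies on it.

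CML 5 went below all of CML 1 to 3 in 27 of the 39 repair genes (69.2%) and above all of them in 10 (25.6%), whereas over all genes tested each happened in 40.7%. In 11 repair genes (28.2%) it was more than 2-fold lower than their mean, against 12.3% of all genes. This went with transcript length. In all 15 repair genes with a transcript of 5000 bases or more CML 5 was below CML 1 to 3, with a median log2 difference of -1.18, and in the 11 genes under 3000 bases it was below in 4 and above in 7 (median 0.18). Spearman's rho of that difference with length was -0.74 across the 39 genes and -0.51 across 11809 genes with a length. Genes share the library, so these are descriptions. The fitted log2 fold change had a rho with length of 0.31 across the repair genes with CML 5 and of 0.11 without it. For the CML-TKI libraries against CML 1 to 3 the rho across the repair genes was between 0.073 and 0.14. The part of transcript length in the fold changes was not tested. Rrm2 (2193 bases) and Fanca (4485 bases) were slightly higher in CML 5 than in CML 1 to 3.

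**Figure D5:**
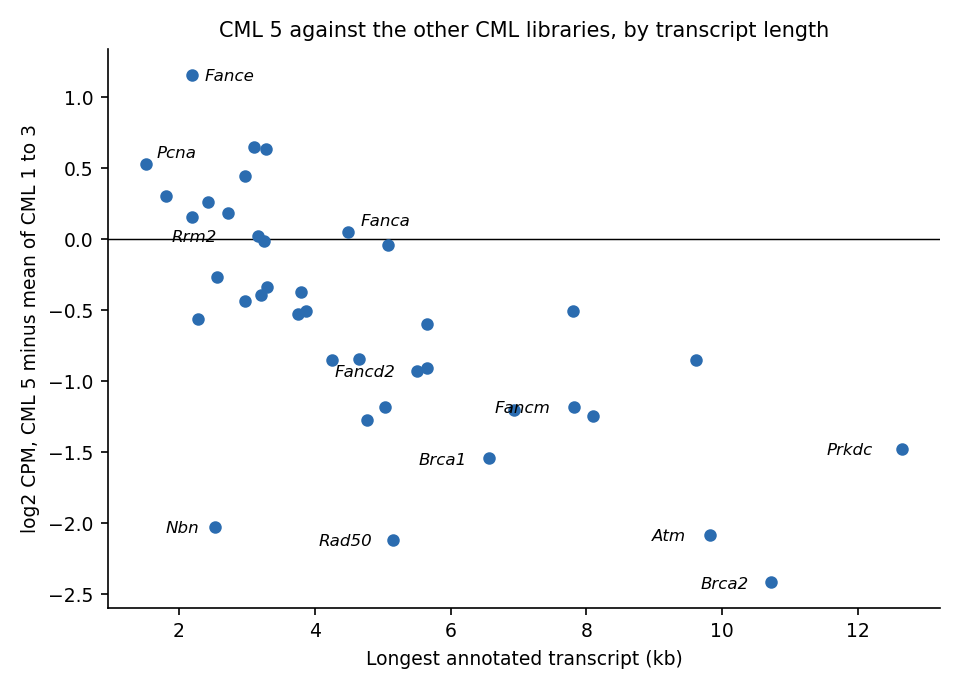
log2 CPM of CML 5 minus the mean of CML 1 to 3 for each repair gene against the length of its longest annotated transcript in kb. Genes of 5 kb or more all lie below 0, down to Brca2 at -2.42, and Fance is the highest at 1.16.

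Cell cycle genes also differed between the groups. All 22 G2/M genes had a fold change above 0, with a median of 0.93, 7 rose (Birc5, Nuf2, Bub1, Aurka, Plk1, Kif20a and Ccna2) and 0 fell, against 6.29% and 3.93% of all genes. Birc5, of the complex that guides chromosome segregation, rose most (1.75 ± 0.34, adjusted p = 0.0119). Their summed level was 1121 to 2425 CPM in CML, lowest in CML 5, and 3189 to 4580 CPM in CML-TKI libraries. Of 22 S phase genes 3 rose (E2f2, Ccne1 and Mcm10) and 1 fell (Chaf1b), against the same shares of all genes, with a median of 0.46. E2f2, a transcription factor of S phase entry, rose most (2.91 ± 0.43, adjusted p = 0.00334). Their sums overlapped, at 2266 to 2546 CPM in CML and 2089 to 3795 CPM in CML-TKI cells. Their part in the values of Rrm2 and the Fanconi genes was not tested.

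Of 156 further repair genes 154 were tested, 3 rose and 2 fell, against 6.29% and 3.93% of all genes, with a median log2 fold change of 0.084. 15 of them had every treated library above and 13 every treated library below the untreated ones, against 10.3% and 13.1% of all genes, so these counts were not above the background. Rad51ap1, a further gene of strand invasion, was at 20.2, 23.0, 16.4 and 17.7 CPM in untreated and 31.0, 46.8, 38.4 and 40.8 CPM in treated cells (1.02 ± 0.26, adjusted p = 0.0376). Dck, the kinase that salvages deoxynucleosides for dNTPs, was at 64.4, 61.4, 58.0 and 50.2 CPM in CML samples and 85.1, 221, 237 and 131 CPM in CML-TKI samples (1.52 ± 0.32, adjusted p = 0.0164). Dck was the 1 gene called of 10 further genes of dNTP supply tested, against 10.2% of all genes. Faap20, a partner of FANCA in the core complex, fell, from 36.5, 37.3, 37.1 and 66.3 CPM to 23.6, 17.97, 19.7 and 23.7 CPM (-1.06 ± 0.29, adjusted p = 0.0489). Gtf2h3, a TFIIH subunit used in nucleotide excision repair, fell from 27.2, 23.5, 27.8 and 30.1 CPM to 14.8, 8.37, 9.86 and 10.4 CPM (-1.31 ± 0.31, adjusted p = 0.0280). Faap20 and Fanca, whose products bind each other, lay on opposite sides of 0.

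Promoters from 250 bases before to 50 bases after an annotated start of a gene were given for 33 of the 39 genes (RefSeq, GRCm38.p6). They were searched on both strands for 4 E2F-type words (TTTGGCGC, TTTGCCGC, TTTCGCGC and TTTCCCGC), for CCAAT, for the cell cycle homology word TTTGAA and for the STAT-type word TTCNNNGAA, none of which contains another. An E2F-type word was found in 7 of the 33 (21.2%), against 2.6% of 27025 promoters. The 7 were Bard1, Brca2, Chek2, Fancg, Lig1, Msh6 and Xrcc6. CCAAT was found in 21 (63.6%, against 41.1%), TTTGAA in 1, Bard1 (3.03%, against 20.2%), and the STAT-type word in 3, Fancb, Fancl and Lig1 (9.09%, against 9.55%). Of the 7 genes with an E2F-type word Bard1 had a log2 fold change of 0.86 and the other 6 had fold changes between -0.33 and -0.012. A match of letters is a description and not a binding site.

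The promoters of the called gene Rrm2 and of 4 genes chosen after their values were seen are shown, since the latter lay next to the threshold. The promoter of Fanci, also a gene without overlap, held none of the words and is not shown. Capitals mark the words found. Distances are counted from the start used for each window. For Fancm, Fanca and Bard1 this start lay inside the annotated gene. On the plus strand Fancm runs from 65074110, and on the minus strand Fanca runs from 123318651 and Bard1 from 71103141. Rrm2 (chr12:24708004-24708303, plus strand), Fancm (chr12:65075353-65075652, plus strand) and Brca1 (chr11:101551906-101552205, minus strand) held 1 CCAAT each, 50, 63 and 86 bases before the start. Fanca (chr8:123318527-123318826, minus strand) held 2, at 50 and 23 bases. Bard1 (chr1:71102923-71103222, minus strand) held TTTGAA at 242 and TTTCCCGC at 209 bases.
Rrm2: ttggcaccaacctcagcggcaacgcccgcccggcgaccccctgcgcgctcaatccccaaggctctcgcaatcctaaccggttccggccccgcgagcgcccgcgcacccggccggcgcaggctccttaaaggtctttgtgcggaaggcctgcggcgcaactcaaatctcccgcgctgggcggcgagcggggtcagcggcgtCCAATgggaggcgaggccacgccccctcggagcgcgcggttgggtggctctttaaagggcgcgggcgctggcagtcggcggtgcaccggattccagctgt
Fancm: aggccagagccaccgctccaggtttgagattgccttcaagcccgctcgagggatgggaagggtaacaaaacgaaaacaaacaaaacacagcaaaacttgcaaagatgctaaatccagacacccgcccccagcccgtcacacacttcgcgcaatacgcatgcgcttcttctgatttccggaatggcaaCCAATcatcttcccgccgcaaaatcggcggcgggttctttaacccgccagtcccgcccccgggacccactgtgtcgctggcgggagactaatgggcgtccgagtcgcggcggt
Brca1: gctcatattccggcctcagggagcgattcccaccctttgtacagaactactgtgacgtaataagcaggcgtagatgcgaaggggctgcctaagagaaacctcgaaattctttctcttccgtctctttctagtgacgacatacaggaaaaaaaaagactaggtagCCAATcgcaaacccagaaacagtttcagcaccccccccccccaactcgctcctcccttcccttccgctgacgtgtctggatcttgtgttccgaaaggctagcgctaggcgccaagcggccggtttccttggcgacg
Fanca: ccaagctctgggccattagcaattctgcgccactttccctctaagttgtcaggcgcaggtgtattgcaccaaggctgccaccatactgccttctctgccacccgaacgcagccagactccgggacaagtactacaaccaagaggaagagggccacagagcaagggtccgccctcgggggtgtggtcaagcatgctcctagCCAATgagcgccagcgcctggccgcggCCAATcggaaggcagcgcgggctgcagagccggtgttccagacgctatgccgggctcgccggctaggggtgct
Bard1: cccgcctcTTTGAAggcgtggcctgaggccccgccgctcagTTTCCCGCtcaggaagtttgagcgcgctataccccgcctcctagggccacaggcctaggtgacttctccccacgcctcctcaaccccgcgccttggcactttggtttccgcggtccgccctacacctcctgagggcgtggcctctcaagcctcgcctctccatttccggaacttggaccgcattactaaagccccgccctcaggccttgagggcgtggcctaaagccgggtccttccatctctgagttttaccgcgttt

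Exons of 18 of the 39 genes overlap another gene, 15 of them only on the opposite strand, as in Fanca with Zfp276, Fanci with Polg and Fancd2 with Fancd2os. The counting is not stated to use strand, so reads of these genes and of their partners cannot be told apart. Rrm2, Brca1 and Bard1 have no such overlap.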

How the data were processed

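RNA of sorted cells was isolated with the RNeasy Plus mini kit and Nextera XT libraries were sequenced in pairs. Reads were aligned to mm10 with STAR 2.6.1d and quantified to RefSeq Transcripts 92 in Partek Flow (Partek 8.0 in the submitters' processing notes). The authors deposited estimated counts per gene without normalisation, 1 column per library. Values were rounded to whole numbers. The genes and lists described here were chosen with earlier results of these data known. R 4.3.3 and edgeR 4.0.16 were used with TMM, filterByExpr (minimum count 10, minimum total 15) and the robust quasi-likelihood test over all 11937 genes, with Benjamini-Hochberg adjustment at 0.05. Standard errors came from the fold change and F (change over root F), and log2 CPM used a prior count of 2. DESeq2 1.42.0 and limma 3.58.1 (voom), other scalings, filters, thresholds and depths, and fits without single libraries were alternatives. Scripts were tested on simulated data. Genes with a full set of values per library were those called, without overlap, or whose direction or call changed with the processing, others being given by their range, and further lists by the genes called, at most 6 each. Lengths are of the longest GENCODE transcript, matched for 98.5% of symbols. Columns of CML libraries 1 to 3 and of the CML-TKI libraries match numbered labels, and the fourth CML column (CML 5) matches its group but no label's number. Some genes of the lists are not reported here by name.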

Additional observations from a re-analysis of the deposited data

Results flagged for a closer look

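In 10 of 78 sets of 4 libraries, 1 gene and group each, a single library lay far from the other 3, by a gap above Dixon's 95% critical value for the share of the whole range. Chance alone gives this in about 1 in 20 sets, and the sets share libraries. 6 of the 10 concerned CML 5. It was low for Atm at 54.0 CPM (next library 212), Prkdc at 55.7 (next 149), Mre11a at 32.2 (next 58.9) and Fanci at 20.9 (next 37.1). It was high for Fance at 47.7 CPM (next 23.0) and Pcna at 307 (next 223). Among the treated libraries, CML-TKI 3 was low for Exo1 at 30.7 CPM (next 43.9) and Chek1 at 19.7 (next 26.8). CML-TKI 4 was high for Atr at 176 CPM (next 87.7) and Xrcc3 at 31.2 (next 12.2). None of these genes was called by edgeR with all 8 libraries, while Atr was called lower in a fit on libraries 1 to 3 of each group (-0.82, adjusted p = 0.0491). Causes were not tested.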

How the results depend on the processing

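The median log2 fold change of the repair genes moved between -0.18 and 0.11 over 20 alternatives, within the spread between libraries. Repair genes called numbered 6 (6 higher) with DESeq2 among 2157 genes in all, 8 (6 higher, 2 lower) with limma-voom among 2544, 2 (both higher) with a minimum count of 30, and 6 (all higher) at an adjusted p under 0.10 among 1957. All genes called fell to 395 at 0.01 and to 570 with counts thinned to the smallest total. Leaving out 1 library at a time gave 1 to 6 repair genes, 1 to 5 higher and 0 to 1 lower, 505 to 2504 genes in all, and 6 to 11 repair genes without overlap (6 to 9 higher, 0 to 3 lower, against 10.9% to 15.5% and 13.7% to 20.6% of all genes). Libraries with the same number did not deviate together (correlations -0.042, 0.097 and 0.093), so numbers were not taken as pairs. With the number as a replicate block, on libraries 1 to 3 of each group since CML 5 has no labelled number, 0 repair genes (0 higher) and 165 genes were called, and Rrm2 was at 2.06 (adjusted p = 0.0778). The same libraries without the block, added after seeing the data, gave 2 repair genes (Rrm2, and Atr as the 1 lower at -0.82, adjusted p = 0.0491) and 589 genes. CML 1 to 3 summed gave 0 (0 higher) and 122. The cause was not tested, except that fewer libraries or counts entered several fits.

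Of the 39 genes 20 kept the sign of their fold change in every alternative that gave a value (18 for Lig4, which was not tested with a minimum count of 30 or with thinned counts, and 20 for the rest). The thresholds of 0.01 and 0.10 reuse the same fold changes. The other 19 changed it in some, and none was called in a setting where its sign had changed (lowest adjusted p 0.342). This happened with limma-voom (Rad50 -0.089, Atm -0.26), scaling without Rn45s (Rad50 -0.062, Rpa2 -0.085, Atm -0.10, Pcna -0.095), no filter (Atm -0.0081), a minimum count of 30 (Exo1 0.0031), the replicate block (Rad50 -0.67, Mre11a -0.12, Fancg 0.25, Atm -0.30, Prkdc -0.18), libraries 1 to 3 unblocked (Rad50 -0.54, Mre11a -0.11, Fancg 0.27, Atm -0.28, Xrcc6 0.0093, Prkdc -0.11), CML 1 to 3 summed (Brca2 0.17, Exo1 0.083, Rpa2 -0.045, Atr 0.0046, Chek1 0.0067, Parp1 0.078, Pcna -0.10) and thinned counts (Rad50 -0.31, Nbn 0.34, Xrcc3 0.078, Fance 0.45, Atr 0.0097, Parp1 0.10, Ung 0.48). Over fits without 1 library the ranges were Atm -0.29 to 0.18, Chek1 -0.16 to 0.042, Exo1 -0.13 to 0.11, Fancg -0.19 to 0.13, Fancl -0.72 to 0.016, Lig1 -0.43 to 0.018, Parp1 -0.20 to 0.14, Pcna -0.10 to 0.20, Rad50 -0.27 to 0.31, Rpa2 -0.080 to 0.17, Xrcc6 -0.32 to 0.074. Depth limits the low genes most in CML-TKI 3, where 3 counts are 3.29 CPM.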
